A study of Neotoma stephensi and Rattus norvegicus with 6 samples.

Results

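The 10 genes described here encode transcription factors of stratified squamous epithelium, and they were chosen by symbol (Trp63, Sox2, Klf4, Klf5, Pitx1, Grhl1, Grhl3, Pax9, Ovol1 and Gata3). All 10 were among the 15481 genes counted, and all 10 were among the 12603 that reached at least 1 CPM (reads of the gene scaled to library size) in at least 3 animals and were tested. PolyA mRNA was sequenced from the fornix ventricularis, the nonglandular part of the stomach, of 3 Stephens' woodrats (Neotoma stephensi) and 3 Sprague Dawley lab rats (Rattus norvegicus), whose foreguts differ in the density of their microbes. All animals were female. The labels call every animal virgin, whereas the methods of the study leave this open for the woodrats. The woodrats were caught in the wild and fed juniper, the lab rats were bought and fed chow, so species, diet and history cannot be told apart. No age was given in the sources used here.

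In a stratified squamous epithelium, cells divide in the basal layer and flatten and keratinize as they move up. p63, encoded by Trp63, keeps the basal cells in this lineage, and SOX2, PITX1 and PAX9 mark the anterior gut and oral epithelium during development. KLF4, the grainyhead-like factors GRHL1 and GRHL3, and OVOL1 act in the upper layers, where barrier and cornified envelope genes are switched on, while KLF5 is linked to proliferating cells. GATA3 acts in keratinocytes and is also the master factor of some T lymphocytes, and SOX2 is also found in enteric glia.

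Each library held between 5439642 and 7932637 counted reads, and 3 counts, taken as the smallest detectable number, corresponded to between 0.355 and 0.586 CPM. No pair of animals of 1 species agreed within sampling noise (chi-square per degree of freedom from 10.1 to 121). Epithelial markers set 1 animal apart. The geometric mean of 15 epithelial genes with reads in every animal (E-cadherin, desmosomal genes, epithelial splicing regulators and protease inhibitors among them) was 44.7 CPM in woodrat 1, 131 in woodrat 2 and 264 in woodrat 3, against 285, 265 and 259.5 in lab rats 1, 2 and 3. Smooth muscle markers stood the other way, with a summed level of 138800, 66810 and 45360 CPM over 10 genes in woodrats 1, 2 and 3 and between 13340 and 26330 CPM in lab rats. Of these 10, 3 were higher in woodrats at an FDR below 0.01 in edgeR's quasi-likelihood test (Synpo2, Mylk and Lmod1, log2 fold changes 3.15, 3.03 and 2.33), while Des and Myh11 were at an FDR of 0.0106 and 0.0102. Over all tested genes 10.3% were higher in woodrats. The count of 3 became 7 under the epithelial scaling described further on, 6 without woodrat 3, 2 without lab rat 2, 1 without woodrat 2 or with the replicate block, and 0 without lab rat 1 or 3. Calls over all genes moved too, from 2516 to 2626 without woodrat 3. They were 898 without woodrat 2, 1050 without lab rat 2, 936 and 1305 without lab rat 1 or 3, and 716 with the block. Under the epithelial scaling 17.1% of all tested genes were higher in woodrats. Lab rat 3 stood apart in another respect. The mean log2 CPM of 20 genes with very long coding regions was 5.29 in this animal, against 5.95 and 5.92 in lab rats 1 and 2 and 6.46 to 6.61 in woodrats, and that of 82 ribosomal protein genes, which are short, was 11.0 against 9.75 to 10.3 in the other 5 animals. Both lists were set up after the values of lab rat 3 had been seen.

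Most of the members varied more between animals of the same species than between the species. With all 6 animals, every one of the 10 had a negative log2 fold change (lower in woodrats) on the TMM scale, from -0.17 for Ovol1 to -2.63 for Pax9, although Pitx1, Ovol1 and Gata3 turned positive, at 0.42 to 0.70, when libraries were scaled on the epithelial genes, a scaling that moved the median of all tested genes to 1.57, so that these 3 stayed below it. In edgeR's quasi-likelihood test, adjusted over all 12603 genes, 1 of the 10 passed a false discovery rate (FDR) of 0.01. Over all tested genes 20.0% passed, 9.71% toward lab rats. The median log2 fold change of the members was -0.81, against 0.03 over all tested genes. At an FDR below 0.05 the members called were 2 of 10, Pitx1 and Pax9, against 39.9% of all tested genes, or 18.9% toward lab rats. Every lab rat lay above every woodrat for 3 members, Sox2, Pitx1 and Pax9, against 27.4% of all tested genes, a share near the background. The reverse held for 0 members and 28.8% of all genes, and groups that did not overlap in either direction made up 56.2%. In bulk tissue, fewer cells of a type and less RNA per cell cannot be told apart.

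**Figure D1:**
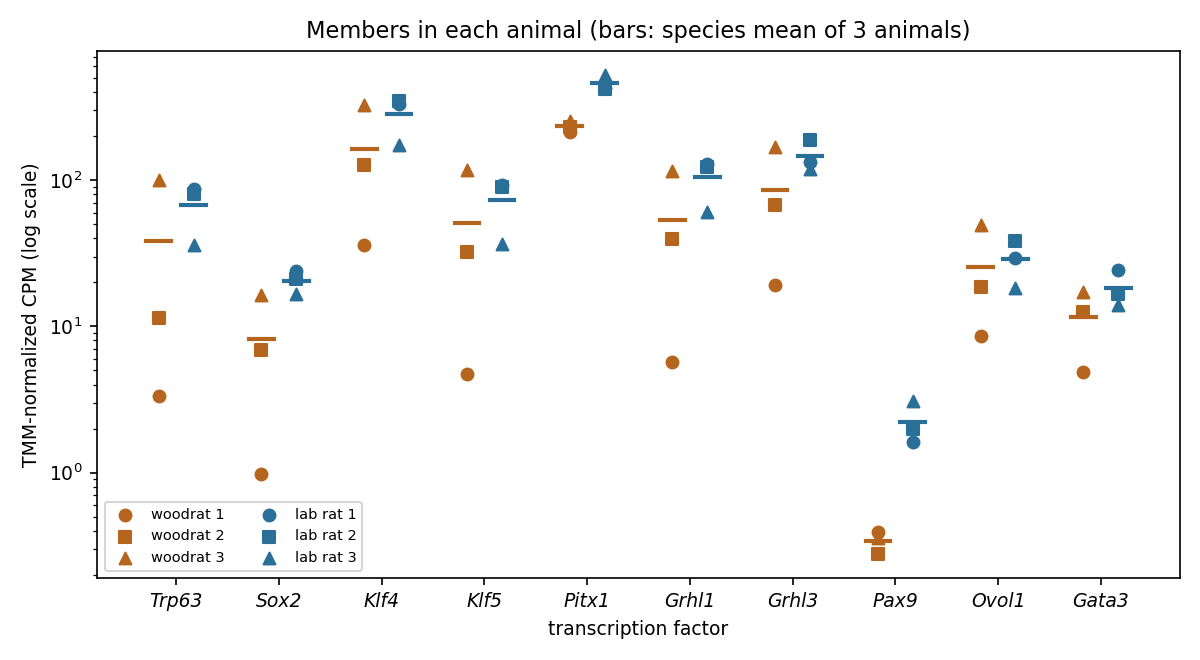
TMM-normalized CPM (log scale) of each of the 10 members in 3 woodrats (brown) and 3 lab rats (blue), with the symbol giving the animal and the bar the species mean. Trp63 ran from 3.32 to 101 CPM among woodrats, while Pitx1 stayed between 213.5 and 255 CPM in them and between 420 and 526 CPM in lab rats.

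Among the factors of the basal layer and of lineage, Trp63 had 3.32, 11.4 and 101 CPM in woodrats 1, 2 and 3 and 87.5, 80.1 and 35.8 CPM in lab rats 1, 2 and 3. Woodrat 1 was the lowest of the 6 animals and woodrat 3 the highest, so the groups overlapped. In edgeR's quasi-likelihood test the fold change of Trp63 was -0.81 on the log2 scale, with a standard error of 0.97 and FDR = 0.53. Its standard deviation within species, on the log2 scale, was 1.79, larger than that of 99.87% of the tested genes, whose median was 0.43. Without woodrat 3 the log2 fold change of Trp63 was -3.17 (FDR = 0.00411), and without woodrat 1 it was -0.28.

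Klf5, a Krüppel-like factor of proliferating epithelium, had 4.69, 32.3 and 117 CPM in woodrats and 92.1, 89.8 and 36.4 CPM in lab rats. It followed Trp63 closely, with the lowest value in woodrat 1 and the highest in woodrat 3. The species means of 51.2 ± 58.3 and 72.8 ± 31.5 CPM (SD, n = 3 each) lay within each other's spread (log2 fold change -0.50, FDR = 0.67). Without woodrat 1 the log2 fold change of Klf5 was 0.03.

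Sox2, the high-mobility-group factor that marks foregut endoderm, had 0.977, 6.94 and 16.5 CPM in woodrats, or 5, 50 and 139 reads. The lab rats had 23.8, 21.2 and 16.6 CPM. All lab rats were above all woodrats, but the margin between woodrat 3 and lab rat 3 was that between 16.46 and 16.56 CPM. The fitted difference, -1.31 on the log2 scale (standard error 0.70), gave an FDR of 0.17, and leaving out woodrat 3 moved it to -2.32 (FDR = 0.0197). The enteric glial factor Sox10 had 4.10, 6.39 and 2.72 CPM in woodrats and 1.99, 2.65 and 2.12 CPM in lab rats; its FDR was 0.11.

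Gata3, a zinc finger factor, had 4.88, 12.6 and 17.3 CPM in woodrats and 24.2, 16.5 and 14.1 CPM in lab rats. The groups overlapped, and the log2 fold change of -0.65 (standard error 0.45) did not pass the test (FDR = 0.28). Leukocyte markers moved with the species beside it. Of 10 tested, 8 were higher in lab rats at an FDR below 0.01, with a summed level over 15 genes of 12.7 to 26.9 CPM in woodrats and 86.2 to 129 CPM in lab rats. Over all tested genes 9.71% were higher in lab rats. The count of 8 became 3 without woodrat 2 or lab rat 1, 4 without lab rat 2, 5 without lab rat 3, 3 with the replicate block and 1 under the epithelial scaling. Calls over all genes fell too, from 2516 to 898 without woodrat 2, 936 without lab rat 1 and 1050 without lab rat 2. They were 1305 without lab rat 3 and 716 with the replicate block. Under the epithelial scaling 1.44% of all tested genes were higher in lab rats. Ptprc, the pan-leukocyte gene for CD45, had 0.195, 0.694 and 0.474 CPM in woodrats and 9.31, 4.47 and 2.12 CPM in lab rats. The part of leukocytes in the Gata3 counts was not tested. Among the leukocyte genes past an FDR of 0.01, the largest changes were those of Cd2, Itgam, Coro1a and Laptm5, with log2 fold changes of -6.42, -3.65, -3.57 and -3.55. Cd2, Itgam, Ptprc and Adgre1 reached the filter of 1 CPM only through the lab rats. Laptm5 and Cd14 reached it in 3 animals only with the lab rats counted. The count of 8 is therefore given as a description. Untested genes, named after their values were seen, went both ways. Cd79a had 5, 11 and 3 reads in woodrats against 2, 0 and 0, and Cd79b had 0, 4 and 4 against 0 in each lab rat. Cd3e and Cd5 were higher in every lab rat than in any woodrat.

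Pitx1, a paired-like homeobox factor, departed from the other members in its evenness. It had 213.5, 230.3 and 255 CPM in woodrats 1, 2 and 3 and 430, 420 and 526 CPM in lab rats 1, 2 and 3. All lab rats were above all woodrats, and the highest animal of a species exceeded the lowest by 1.20-fold in woodrats and 1.25-fold in lab rats. For Trp63 the same ratios were 30.3-fold and 2.44-fold. The within-species standard deviation of Pitx1 was 0.16 on the log2 scale, and only 5.94% of the tested genes had a smaller one. Its log2 fold change of -0.98 (standard error 0.25), a level 1.97-fold lower in woodrats, missed the threshold at an FDR of 0.0157, and DESeq2 gave an adjusted p of 0.000429. With each animal left out the log2 fold change of Pitx1 stayed between -1.05 and -0.87.

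Pitx1 was even in CPM within each species while the other members varied, so its weight among the members changed. The members without Pitx1 summed to 83.8, 316 and 910 CPM in woodrats 1, 2 and 3. In lab rats 1, 2 and 3 they summed to 851, 909 and 478 CPM. Pitx1 made up 71.8%, 42.2% and 21.9% of the summed CPM of the 10 members in woodrats 1, 2 and 3, against 33.6%, 31.6% and 52.4% in lab rats. For each read of Trp63 there were 64.3, 20.2 and 2.54 reads of Pitx1 in the woodrats, against 4.92, 5.25 and 14.7 reads in the lab rats. The lab rat with the largest ratio was animal 3, in which most members were low. With 3 animals against 3 an exact permutation test of a share cannot go below p = 0.1 (two-sided), so none of the 10 shares could pass a threshold of 0.05. Sox2 alone reached that smallest p (adjusted 0.67), every lab rat share lying above every woodrat share, with 1.00 ± 0.59% in woodrats and 1.70 ± 0.14% in lab rats (SD, n = 3).

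Pax9, a paired-box factor needed for oral and oesophageal epithelium, was the member that passed the test, and the least counted. It had 2, 2 and 3 reads in woodrats, against 13, 12 and 16 in lab rats, or 0.391, 0.278 and 0.355 CPM against 1.61, 1.98 and 3.08 CPM. Every woodrat was at or below 3 counts, and every lab rat was above every woodrat. Pax9 reached the filter of 1 CPM only through the lab rats, the group in which it was higher, so its call is given as a description. The pooled reads, 41 against 7, gave a lab rat to woodrat ratio of 6.30 (95% exact Poisson interval 2.80 to 16.7, counting error only). The fit put the difference at -2.63 on the log2 scale (standard error 0.53) with FDR = 0.00609, and its size depends on the prior count, being -1.96 at a prior count of 2. The call was lost when any single animal was left out (log2 fold change from -2.83 to -2.35, FDR from 0.0135 to 0.0287), with the replicate block (log2 fold change -2.65, FDR = 0.028) and under the epithelial scaling (FDR = 0.21).

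In the upper-layer group, Klf4 had 36.1, 127 and 326 CPM in woodrats and 329.5, 349.5 and 174.5 CPM in lab rats. Woodrat 1 was far below the rest and woodrat 3 lay within the range of lab rats. The species differed by -0.80 on the log2 scale with a standard error of 0.66, which did not pass (FDR = 0.36). Klf4 is also expressed outside epithelium, for example in endothelium. It was at its lowest in woodrat 1, the animal with the most smooth muscle transcripts. The summed level of 8 endothelial genes was lowest there too, at 65.2 CPM, against 120 and 102 CPM in woodrats 2 and 3. The part of endothelium in the Klf4 counts was not tested.

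Grhl1 and Grhl3, which drive barrier and junction genes, behaved alike. Grhl1 had 5.66, 39.3 and 115 CPM in woodrats and 129, 124 and 60.9 CPM in lab rats. Grhl3 had 19.1, 67.7 and 169 CPM in woodrats and 133, 188 and 118.5 CPM in lab rats. In both, woodrat 1 was the lowest of all animals and woodrat 3 lay among the lab rats. The log2 fold changes were -0.96 (FDR = 0.36) for Grhl1 and -0.78 (FDR = 0.35) for Grhl3. Their paralog Grhl2 had 0.977, 9.72 and 30.6 CPM in woodrats and 26.9, 29.1 and 7.32 CPM in lab rats (log2 fold change -0.60, FDR = 0.62).

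Ovol1, a zinc finger repressor that moves cells out of the basal state, had 8.59, 18.5 and 49.2 CPM in woodrats and 29.5, 38.5 and 18.3 CPM in lab rats. It differed least between the species (log2 fold change -0.17, standard error 0.57, FDR = 0.83), and the sign turned with woodrat 1 or lab rat 2 left out. Its paralog Ovol2 had 0.391, 1.39 and 0.474 CPM in woodrats and 3.60, 3.64 and 3.08 CPM in lab rats, with all lab rats above all woodrats and an FDR of 0.0137. Ovol2 reached the filter of 1 CPM in 3 animals only with the lab rats counted, where it was higher, so these values are given as a description.

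With the mean of each species subtracted, 8 members (all but Pitx1 and Pax9, a set chosen after the values were seen) varied together over the 6 animals. The Pearson correlations of their log2 CPM, over 28 pairs, ran from 0.86 to 0.999 with a median of 0.97. The points share the library and the tissue sample of each animal, and woodrats 1 and 3 span most of the range. Such likeness was common, since 9.08% of 8257 other genes with a mean of at least 10 CPM had a correlation above 0.9 with the mean of the members (9 members, since Pax9 was below 10 CPM). The 5 genes most like that mean were Paqr5, Prcp, Cd24a, Pvrl4 and Adgrg1, with r from 0.998 to 0.9997. Pitx1 had r = 0.35 with the mean of the members and Pax9 had r = -0.33.

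Among the woodrats, the animal that was low for the members was also low in the means of the epithelial reference, basal layer and upper-layer lists. Relative to the mean of the 3 woodrats, the mean log2 CPM of 9 members (without Pax9) was -1.63 in woodrat 1, 0.13 in woodrat 2 and 1.50 in woodrat 3. The epithelial reference list was at -1.37, 0.22 and 1.15 in the same animals, and the smooth muscle list at 0.85, -0.16 and -0.68. Woodrat 1 was the lowest of the 6 animals for 9 of the 10 members, for 15 of 16 epithelial reference genes and for 22.4% of all tested genes. The same held for 16 of 24 upper-layer genes but for only 8 of 17 basal layer genes. Its part in the species differences is given by the fits without it, in which the median log2 fold change of the members was -0.32, against -1.88 without woodrat 3.

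**Figure D2:**
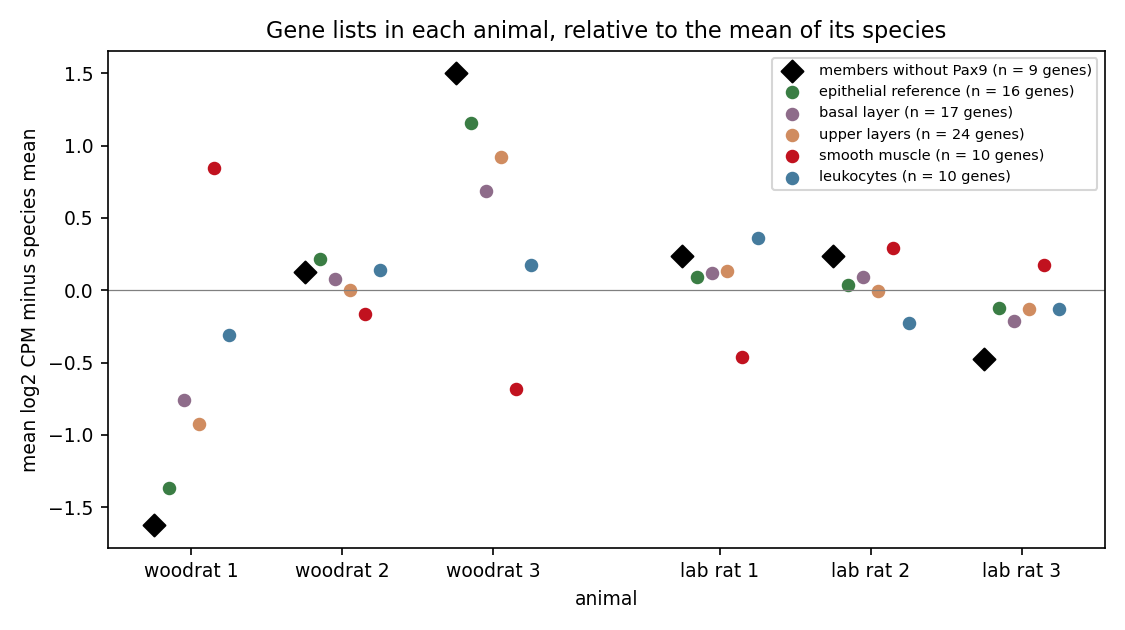
Mean log2 CPM of each gene list in each animal, minus the mean of the 3 animals of its species, one colour per list (black diamonds: the members without Pax9). In woodrats the members moved with the epithelial lists and opposite to smooth muscle, from -1.63 to 1.50, and in lab rat 3 they were at -0.48 while the epithelial reference list was at -0.12.

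In lab rats the pattern was not the same. The epithelial reference list spanned only 259.5 to 285 CPM (geometric mean), yet 8 of the 10 members had their lowest lab rat value in lab rat 3, against 46.7% of all tested genes. The median difference of the members, lab rat 3 against the mean of the other two, was -0.69 on the log2 scale, and that of the 16 tested epithelial reference genes was 0.02. Lab rat 3 was also the lowest lab rat for 16 of the 24 other squamous factors (median difference -0.45) and for 10 of the 17 basal layer genes (median difference -0.29). Lab rat 3 is also the animal with low long transcripts and high ribosomal protein transcripts, and the part of this difference in the member values was not tested. Without lab rat 3 the median log2 fold change of the members was -0.98, and 0 passed the test.

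Scaling each library on the geometric mean of the 15 epithelial genes set the members against an epithelial measure in place of all RNA. This scaling moved the median log2 fold change of all tested genes from 0.03 to 1.57, while that of the members became -0.05. On this scale 0 of 10 members passed an FDR of 0.01, or an unadjusted p of 0.05, in edgeR's quasi-likelihood test, against 18.5% of all tested genes, 17.1% toward woodrats and 1.44% toward lab rats. Grhl3 had 42.9, 51.9 and 63.9 reads per 100 of the epithelial mean in woodrats, against 46.8, 71.1 and 45.6 in lab rats. Klf4 had 80.9, 97.0 and 123 in woodrats, against 116, 132 and 67.3 in lab rats. Both spread far less on this scale, by 1.49-fold for Grhl3 and 1.53-fold for Klf4 between the extreme woodrats, against 8.82-fold and 9.02-fold in CPM.

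Trp63 still varied 5.12-fold between woodrats on the epithelial scale, with 7.44, 8.71 and 38.1 reads per 100. Pitx1 showed the reverse order, with 478, 176 and 96.6 in woodrats 1, 2 and 3, against 151, 159 and 203 in lab rats, and the species difference on the log2 scale, 0.55 with a standard error of 0.91 (FDR = 0.62), lay below the shift of all genes. Ovol1 was at 19.2, 14.1 and 18.6 in woodrats, against 10.4, 14.6 and 7.05 in lab rats (log2 fold change 0.70, FDR = 0.50). These values do not show that the species express the members alike, since the standard errors on this scale were 0.85 to 1.04.

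**Figure D3:**
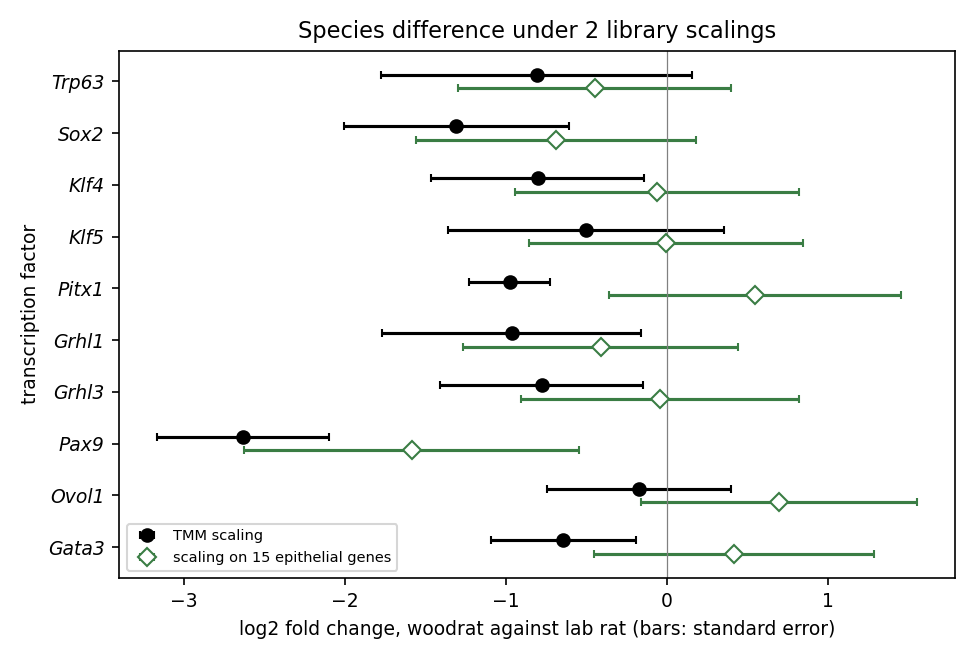
Log2 fold change of each member, woodrat against lab rat, with its standard error, from 6 animals under TMM scaling (black) and under scaling on 15 epithelial genes (green). The median moved from -0.81 to -0.05, and Pitx1, Ovol1 and Gata3 crossed 0.

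Woodrat 3 had an epithelial level of 264 CPM, close to the 259.5 to 285 CPM of the lab rats, and can be set beside the lab rats as a single animal without a test. Its Pitx1, Pax9 and, narrowly, Sox2 lay below all lab rats, its Trp63, Klf5 and Ovol1 above all, and its Klf4, Grhl1, Grhl3 and Gata3 within their range. Over all tested genes, 37.2% were below, 41.2% above and 21.6% within.

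**Figure D4:**
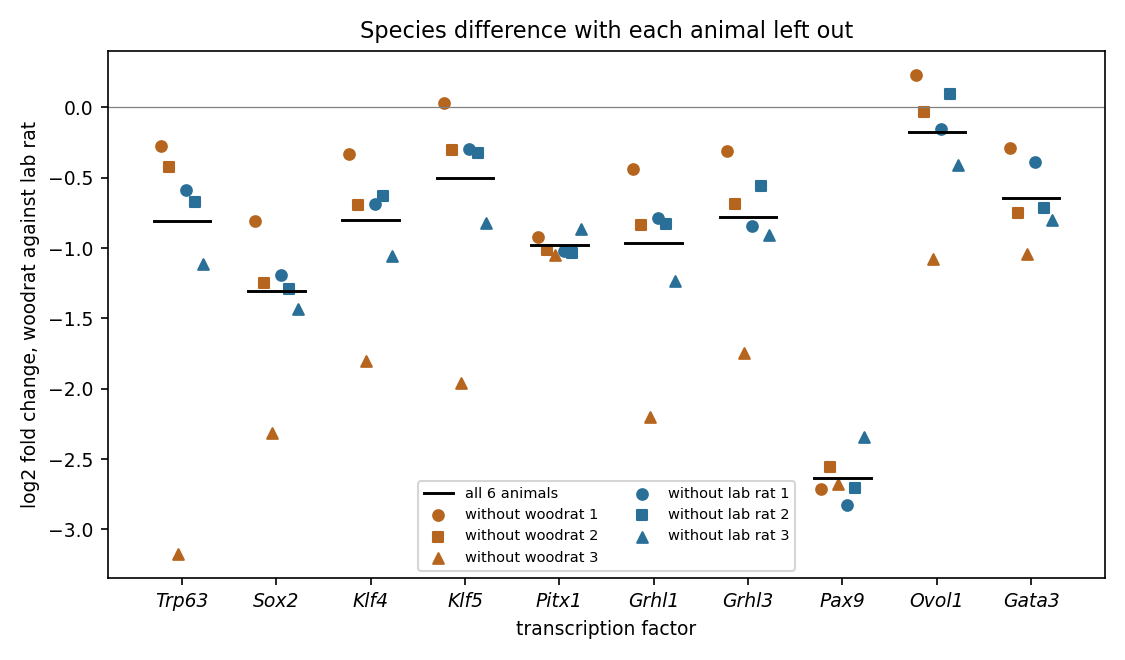
Log2 fold change of each member with all 6 animals (line) and with each animal left out (symbols). Leaving out woodrat 3 moved Trp63 to -3.17, whereas Pitx1 stayed between -1.05 and -0.87 in all 6 fits.

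Of 28 other transcription factors linked to squamous epithelium, 24 were tested. In total 4 were higher in lab rats at an FDR below 0.01, 0 were higher in woodrats, and the median log2 fold change was -0.66. Over all tested genes 9.71% were higher in lab rats. Barx2, a homeobox factor, had 27.9, 91.5 and 96.4 CPM in woodrats and 275, 243 and 298 CPM in lab rats (log2 fold change -1.92, standard error 0.44, FDR = 0.0099). Hes1, a target of Notch signalling that delays differentiation, had 15.4, 28.0 and 25.8 CPM in woodrats and 69.5, 63.0 and 103 CPM in lab rats (log2 fold change -1.76, FDR = 0.0038). Cebpb, an early differentiation factor, had 33.4, 42.9 and 39.6 CPM against 71.9, 82.5 and 126.5 CPM (log2 fold change -1.28, FDR = 0.00819). In these 3 genes all lab rats were above all woodrats.

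Elf3, an ETS factor of differentiating epithelium, was nearly unread in woodrats, with 2 reads over 3 animals against 111 in lab rats. The ratio of lab rat to woodrat was 59.7 (95% exact Poisson interval 16.2 to 499, counting error only). Elf3 reached the filter of 1 CPM only through the lab rats, where it was higher, so its call is given as a description. The refits named next used the same tested genes. Its FDR was 0.000746, and it passed in all 6 fits with 1 animal left out, with the replicate block (FDR = 0.00779) and under the epithelial scaling (FDR = 0.0016). Without lab rat 1 or 3, or without woodrat 2, Elf3 was the one factor of the list past the threshold.

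Zfp750, a p63 target that promotes differentiation, had 22.9, 74.1 and 161 CPM in woodrats and 170, 165 and 126.5 CPM in lab rats, and did not pass (FDR = 0.27). It was lowest in woodrat 1, as were 20 of the 24 tested factors.

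**Figure D5:**
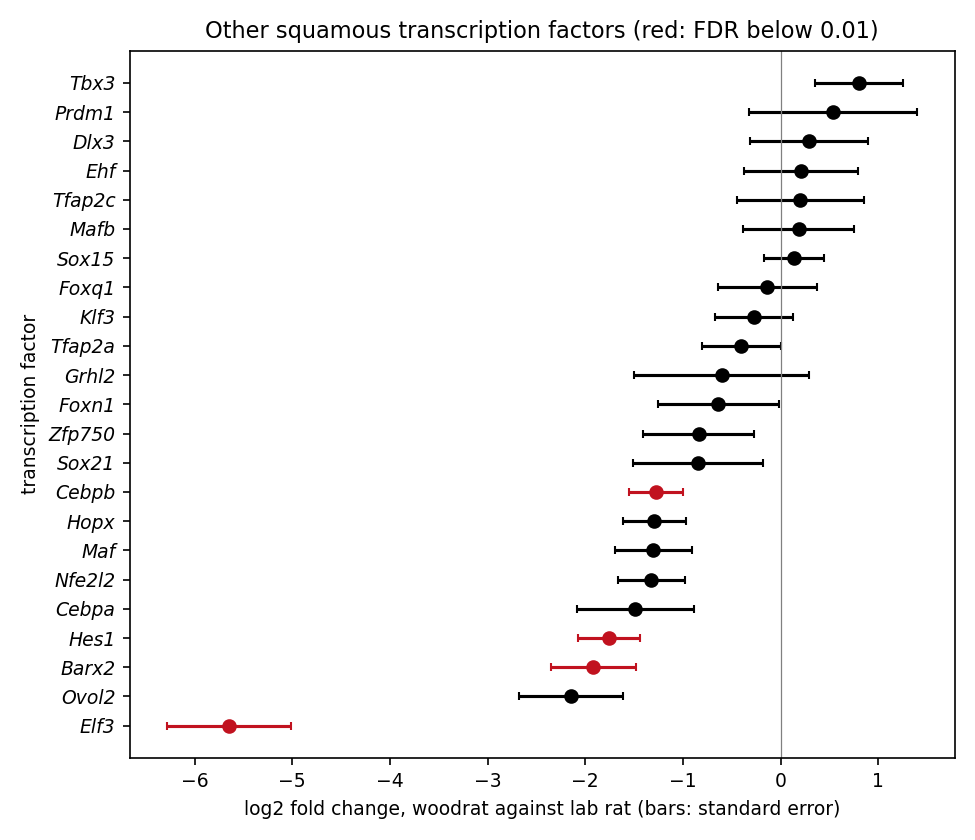
Log2 fold change, woodrat against lab rat, with its standard error, of other squamous transcription factors from 6 animals (1 tested factor is not shown). The red points are Elf3, Barx2, Hes1 and Cebpb, all higher in lab rats at an FDR below 0.01.

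Genes of the basal layer and of the upper layers were read in the same fit. Their control by the members was not tested. Of 18 basal layer genes, 17 were tested, 2 were higher in woodrats, 0 were higher in lab rats, and the median log2 fold change was 0.005. The 2 of 17 lie near the 10.3% of all tested genes that were higher in woodrats. Krt5, the basal keratin under p63 control, had 250, 513 and 794 CPM in woodrats and 686, 577 and 740 CPM in lab rats (FDR = 0.51). Its partner Krt14 had 509, 714 and 797 CPM against 338, 336 and 599 CPM (FDR = 0.15). Both keratins spread far less among woodrats than Trp63 did. The called genes were Itga3, for the integrin alpha 3 chain (log2 fold change 1.95, standard error 0.35, FDR = 0.00398), and Dst, for the hemidesmosome linker dystonin (log2 fold change 1.38, FDR = 0.00437). Both genes had their highest value in woodrat 1, at 92.8 CPM for Itga3 and 539 CPM for Dst, where the smooth muscle markers were also highest, and the part of non-epithelial cells in them was not tested. Neither passed without woodrat 2 or without any of the lab rats.

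Of 25 upper-layer genes, 24 were tested, 1 was higher in woodrats and 2 were higher in lab rats, with a median of -0.22. Over all tested genes 10.3% were higher in woodrats and 9.71% in lab rats, shares that these counts did not exceed. Krt4, the keratin of nonkeratinized oesophageal and oral epithelium, had 4523, 10030 and 14120 CPM in woodrats and 380, 1615 and 839 CPM in lab rats (log2 fold change 3.34, standard error 0.68, FDR = 0.00627). Ivl, for the envelope precursor involucrin, had 11.3, 8.61 and 7.82 CPM in woodrats and 383, 282 and 195 CPM in lab rats (log2 fold change -4.96, standard error 0.36, FDR = 0.000172). Krtdap, a keratinocyte differentiation peptide, fell in the same direction, with 1666, 2447 and 1876 CPM in woodrats and 8711, 7877 and 17060 CPM in lab rats (log2 fold change -2.49, FDR = 0.00523). Among the woodrats Ivl ran only from 7.82 to 11.3 CPM, a 1.45-fold spread, and a link to the members was not tested. Krt4 passed without woodrat 1 or 3 but not without woodrat 2 or any lab rat, Krtdap passed only without lab rat 3, and Ivl passed in all 6 fits. Reads of keratin genes can be split between near-identical paralogs, so the keratin values are uncertain.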

How the data were processed

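The authors trimmed stranded polyA read pairs with Trimmomatic, merged them with FLASH, aligned them with cross_match to mouse protein-coding transcripts on the correct strand, gave each read to its best-scoring gene, left out genes with many multiple alignments, and deposited raw counts of uniquely mapped reads per gene (tool versions are not given in the sources used here). Counts of either species may be lower for genes that diverge from mouse, so fold changes of a gene between species can carry mapping differences. Tables were joined using Python 3.11.15 (pandas 2.3.3). A gene was tested if 3 or more animals reached 1 CPM, whereas the filter of the study was set at 5 CPM. At 5 CPM Pax9 was not tested, and 0 of 9 members passed an FDR of 0.01. TMM scaling and the quasi-likelihood F-test of edgeR 4.0.16 under R 4.3.3 (legacy mode, species as the only term, prior count 0.125, Benjamini-Hochberg adjustment over all tested genes, FDR below 0.01, the threshold of the study) were run. The standard error is the log2 fold change divided by the square root of F. DESeq2 1.42.0 was an alternative. Intervals and count floors cover counting error only. The animals are taken as separate, as labelled by species and replicate number.

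The members and gene lists were chosen with earlier results of these data known. The text names every member, up to 4 genes per direction of each other list past the threshold by size of change, a fixed set of markers and partner factors (Krt5, Krt14, Myh11, Des, Ptprc, Atp4a, Cdx2, Gata4, Gata6, Grhl2, Ovol2, Zfp750 and Sox10, with 1 further gene not reported here), and the 5 genes most like the members. The lists of long and ribosomal genes were added after values of the libraries had been seen. No genome was used, so neither positions nor sequences are printed. Scripts were tested on simulated counts.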

Additional observations from a re-analysis of the deposited data

How the results depend on the processing

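Of the members, 1 passed an FDR of 0.01 with all 6 animals. The count was 0 with a filter at 5 CPM (which removes Pax9), under the epithelial scaling and with the replicate block, 2 under DESeq2 and at an FDR below 0.05 (Pax9 and Pitx1), and 0 to 1 with 1 animal left out (the 1 being Trp63, without woodrat 3). The count of other squamous factors, 4 with all animals, was 2, 1 and 1 under the filter, the epithelial scaling and the replicate block, 7 under DESeq2, 8 at an FDR below 0.05, and 1 to 5 with 1 animal left out. The 2 basal layer genes became 1 with total counts only and under the epithelial scaling, 0 with the replicate block, and 0 to 3 with 1 animal left out. The 3 upper-layer genes became 8 under DESeq2, 1 with the replicate block, 7 at an FDR below 0.05, and 1 to 4 with 1 animal left out. The causes were not tested. Animals share replicate numbers 1 to 3 across species, but same-numbered animals did not deviate together (correlations -0.29, -0.09 and -0.28), so the numbers do not pair them. The replicate block took the calls over all genes from 2516 to 716, and DESeq2 took them to 3916. With 1 animal left out they ran from 898 to 2626.

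Signs turned for members that had not passed. Under the epithelial scaling, which moved the median of all genes from 0.03 to 1.57, Pitx1 was at 0.55, Ovol1 at 0.70 and Gata3 at 0.42, all below that median. With 1 animal left out Klf5 ranged from -1.96 to 0.0323 and Ovol1 from -1.08 to 0.23, positive without woodrat 1 (Ovol1 also without lab rat 2). The difference in the share of the member total (percentage points, woodrat minus lab rat) also turned. Leaving Pitx1 out of the sum gave 1.79 for Klf4, 0.11 for Klf5 and 0.57 for Grhl3, and leaving Klf4 out gave 0.0539 for Klf5. With 1 animal left out, the ranges were -5.45 to 2.45 for Klf4, -2.11 to 2.11 for Klf5, -7.16 to 17.8 for Pitx1, -3.935 to 0.0533 for Grhl1 and -2.69 to 1.33 for Grhl3. Under epithelial scaling 92.2% of all calls were toward woodrats, against 51.4% under TMM and 44.7% with total counts only. Depth limits Pax9, with 2 to 3 reads in each woodrat, and Sox2, with 5 reads in woodrat 1.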

Other observations

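Markers of the remaining cell types of the wall were read in edgeR's quasi-likelihood test at an FDR below 0.01. At that threshold 9.71% of all tested genes passed toward lab rats and 10.3% toward woodrats. Of 8 endothelial genes 2 were higher in lab rats, the receptor gene Tie1 (5.47, 6.25 and 7.70 CPM in woodrats against 27.9, 29.4 and 36.4 CPM, FDR = 0.00104) and the adhesion gene Esam (FDR = 0.00465). Of 8 fibroblast genes the proteoglycan gene Dcn was higher in lab rats (143, 285 and 190 CPM against 537.5, 526 and 578 CPM, FDR = 0.00892). Of 9 tested neuron and glia genes, the glial filament gene Gfap was higher in woodrats (4.88, 11.7 and 1.42 CPM against 0.124, 0.331 and 0.193 CPM, FDR = 0.00567). Gfap reached the filter of 1 CPM only through the woodrats, so its call is given as a description. S100b, another glial gene, named after its values were seen, went the other way. It had 0.977, 0.833 and 0.948 CPM in woodrats against 3.72, 2.98 and 1.73 CPM in lab rats (FDR = 0.0238, same test). S100b reached the filter in 3 animals only with the lab rats counted. Of the 9 genes, 7 had a positive log2 fold change and 2 a negative one. Of 16 tested epithelial reference genes, the membrane protease gene St14 was higher in lab rats (18.8, 32.3 and 46.4 CPM against 126.5, 119 and 171 CPM, FDR = 0.00303). Under the epithelial scaling Dcn was at a log2 fold change of -0.00081 (FDR = 0.9994), Esam at -0.16 (FDR = 0.88), Tie1 at -0.86 (FDR = 0.42) and St14 at -0.89 (FDR = 0.40), and these did not pass, while Gfap did (log2 fold change 6.25, FDR = 5.61e-06).

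Of 37 paralogs of the members, 18 were tested (Klf3, Grhl2 and Ovol2 also stand in the list of other squamous factors). Klf7, a Krüppel-like factor known from neurons, was higher in woodrats, with 7.42, 5.55 and 4.98 CPM against 0.745, 1.32 and 0.578 CPM (log2 fold change 2.73, standard error 0.45, FDR = 0.00288, edgeR quasi-likelihood test). Klf7 reached the filter of 1 CPM in 3 animals only with the woodrats counted. Klf9 and Klf15, named after their values were seen, came close, with log2 fold changes of 2.40 (FDR = 0.0106) and 2.24 (FDR = 0.0102), and every woodrat was above every lab rat for both. The count of 1 paralog past the threshold became 3 without woodrat 1 or under the epithelial scaling, and 2 without woodrat 3. It was 0 without woodrat 2, without lab rat 1 or 3, or with the replicate block. Calls over all genes, 2516 with all animals, were 1876 without woodrat 1 and 2626 without woodrat 3. They were 898 without woodrat 2, 936 and 1305 without lab rat 1 or 3, and 716 with the block. Under the epithelial scaling 17.1% of all tested genes were higher in woodrats. Pitx3, also named after its values were seen, was as even as Pitx1, with 15.6, 16.2 and 16.1 CPM in woodrats, against 29.4, 30.3 and 34.7 CPM in lab rats (log2 fold change -0.97, FDR = 0.0127). Reads shared between Pitx1 and Pitx3 were not examined.

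Of 20 factors of glandular stomach and intestine 9 were counted and 3 were tested, and of 14 glandular stomach products 2 were tested. Gata4 had 0.586, 0.555 and 0 CPM in woodrats, with 0 reads in lab rats, and Gata6 stayed at or below 0.833 CPM in every animal. Sox9 was higher in woodrats, at 2.73, 2.78 and 4.26 CPM against 0.869, 0.662 and 0.385 CPM (FDR = 0.00718). Sox9 reached the filter of 1 CPM only through the woodrats, so its call too is a description. The proton pump gene Atp4a had 5.69 to 6.05 CPM in woodrats, against 6.74 to 9.76 CPM in lab rats. The mucin gene Muc5ac had 62 reads in woodrats and 0 in lab rats, at least 19.2-fold higher when set against 3 counts over the lab rats. Muc5ac reached the filter of 1 CPM only through the woodrats. Other products, named after their values were seen, were barely read. Pgc, Muc6, Tff2, Gkn1 and Lipf had at most 2 reads in any animal. Gkn2 had 9, 0 and 1 reads and Gast 3, 2 and 3 reads in woodrats, with 0 in lab rats. Cdx2 was not analysed here.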
